A study of Mus musculus with 6 samples.

Results

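Immunoglobulin gene segments are the V, D, J and constant (C) genes from which B cells assemble antibody chains. They were taken as every listed gene whose symbol starts with an immunoglobulin heavy, kappa or lambda prefix (such as Ighv, Igkj or Iglc) and whose GENCODE biotype is an immunoglobulin one, and 230 of the 20097 listed genes met this rule. The heavy chain locus gave 119 genes (106 V, 1 D, 4 J and 8 C), the kappa light chain locus 103 (97 V, 5 J and 1 C) and the lambda light chain locus 8 (3 V, 2 J and 3 C). GENCODE annotates 395 such genes, and the other 165 were not analysed here. RNA was measured in mouse bone marrow cells selected for c-Kit, the receptor encoded by Kit that marks stem and progenitor cells of the blood. Of the 6 libraries, 3 carry the genotype label WT and 3 the label Runx1 KO, for loss of the gene that encodes the transcription factor RUNX1. The labels name neither strain, age nor sex, nor how, when or in which cells Runx1 was disrupted, nor whether libraries come from separate animals, so the p-values measure the spread between these libraries, which may be technical.

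A B cell joins D to J and then V to DJ in the heavy chain locus, and V to J in a light chain locus, with breaks made by the RAG recombinase. The joined V exon is spliced to a C gene: Ighm and Ighd encode IgM and IgD, and class switching replaces them by an Ighg, Ighe or Igha gene. Many segments are also transcribed before they are joined, as germline RNA, and plasma cells carry far more immunoglobulin RNA per cell than other B cells. Reads assigned to a segment do not tell joined from germline RNA, and in bulk RNA fewer cells of a type and less RNA per cell cannot be told apart.

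The libraries held between 23297526 and 26793380 reads over the listed genes, recovered from deposited values that are read counts divided by 1 factor for each library, called normalised reads here. Runx1 RNA was more abundant under the knockout label: it stood at 3031, 2799 and 3497 normalised reads in WT replicates 1 to 3 and at 6648, 6720 and 5830 in the libraries labelled Runx1 KO (log2 change 1.04, SE 0.10, limma adjusted p = 0.00163). A count over the whole gene does not show whether a part of it is deleted, so it leaves the genotype labels unchecked, and every direction below is one between labels. Kit, the selected marker, stood between 7979 and 8471 normalised reads in WT and between 11507 and 13685 in the libraries labelled Runx1 KO. Library 1 labelled Runx1 KO stood apart from the other 2 of its label: of the 203 immunoglobulin genes with a read in that group, 148 had their highest value of the group in it. Over all listed genes this held for 8271 of the 20001 with a read in that group. Library 1 of that label also held 1798 summed normalised reads of 14 T lineage genes, inside the WT range of 1513 to 2072, against 478 in each of the other 2. Values without it are given beside several of the sums and calls below.

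The listed D and J segments are shown whole, because the kappa and lambda J segments gave large ratios between groups and the heavy J segments a smaller one. They are given 5′ to 3′ on the coding strand, from GENCODE M21 transcripts on GRCm38, the heavy segments from chromosome 12, kappa from chromosome 6 and lambda from chromosome 16. Ighd4-1 lies at chr12:113430528-113430538 and Ighj1 to Ighj4 run from chr12:113429781-113429833 down to chr12:113428514-113428567, all on the minus strand. Igkj1 to Igkj5 run along the plus strand from chr6:70722562-70722599 to chr6:70723886-70723923, and Iglj1 and Iglj3p lie on the minus strand at chr16:19063225-19063262 and chr16:19066371-19066408. Capitals mark TGGGG in heavy and TTCGG in light chain J segments, the start of the conserved Trp-Gly or Phe-Gly turn, each searched for on this strand only. Igkj3 and Iglj3p hold no TTCGG.
Ighd4-1: ctaactgggac
Ighj1: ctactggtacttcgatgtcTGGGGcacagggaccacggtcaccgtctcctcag
Ighj2: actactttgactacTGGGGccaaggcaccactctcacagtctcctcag
Ighj3: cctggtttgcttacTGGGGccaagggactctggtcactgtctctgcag
Ighj4: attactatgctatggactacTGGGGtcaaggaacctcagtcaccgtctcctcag
Igkj1: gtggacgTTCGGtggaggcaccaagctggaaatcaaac
Igkj2: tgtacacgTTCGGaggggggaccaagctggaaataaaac
Igkj3: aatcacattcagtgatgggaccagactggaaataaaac
Igkj4: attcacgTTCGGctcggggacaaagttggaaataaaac
Igkj5: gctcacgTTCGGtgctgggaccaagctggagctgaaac
Iglj1: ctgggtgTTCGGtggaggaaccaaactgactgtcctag
Iglj3p: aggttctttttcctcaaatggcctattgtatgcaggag
All 4 heavy J segments held the heavy motif, and 5 of the 7 light chain J segments held TTCGG.

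Immunoglobulin RNA was lower in the libraries labelled Runx1 KO at all 3 loci. The 230 genes together took 0.319%, 0.253% and 0.332% of the reads of WT replicates 1 to 3, and 0.184%, 0.0553% and 0.0699% of those labelled Runx1 KO, replicates 1 to 3. Summed, they came to 77922 ± 10232 normalised reads in WT (SD, n = 3) and 25142 ± 17103 in the libraries labelled Runx1 KO (SD, n = 3), a 3.10-fold difference that was 5.09-fold without library 1 of that label. Groups did not overlap in either sum or share.

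Of the 230 genes, 158 passed the filter on low values and were tested, and 62 of these fell at a limma adjusted p under 0.05: 28 of 82 heavy, 28 of 70 kappa and 6 of 6 lambda genes. Across all 15410 genes tested, 11.3% fell, 10.6% rose and 21.9% did either. No immunoglobulin gene rose, by limma or by edgeR's quasi-likelihood test, and none had a positive change at an unadjusted limma p under 0.05. The edgeR test called 21 heavy, 25 kappa and 4 lambda genes lower, against 10.5% of all genes. The median log2 change of the tested members was -2.50, against -0.004 over all genes tested, and 155 of the 158 had a negative change. Of those tested, 18 passed the filter through WT libraries only, so that a lower value was built into their selection. All 3 libraries labelled Runx1 KO lay above the filter's cut in 43 of the 158, against 14349 of all 15410 genes tested. The remaining tested members also needed WT libraries to pass, so that a lower value was partly built into their selection too. With no filter all 230 entered the test, 221 had a negative change and 86 were called lower, against 9.09% of all listed genes. By ranges alone, 121 of the 230 had every library labelled Runx1 KO under every WT library (52 heavy, 62 kappa and 7 lambda), against 19.9% of all listed genes, and none had the opposite order, against 18.7%.

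Without library 1 labelled Runx1 KO the lower calls rose to 50 heavy and 53 kappa genes, with lambda at 6. Without library 2 of that label they were 15 heavy, 21 kappa and 1 lambda, and without library 3 18, 23 and 1. Leaving out WT replicate 1, 2 or 3 gave 21, 21 and 19 heavy, 21, 24 and 19 kappa, and 1, 4 and 1 lambda calls. The share of all genes called lower moved as well, from 11.3% to 12.4%, 4.65% and 5.75% without library 1, 2 or 3 labelled Runx1 KO. Without WT replicate 1, 2 or 3 that share was 8.02%, 7.75% and 7.46%. Members tested rose from 158 to between 162 and 182 in these fits. The median spread between replicates of the same label was also higher at these genes. The median SD of the log2 values was 0.76 in WT and 1.64 in the libraries labelled Runx1 KO for tested members. Over all genes tested it was 0.14 and 0.13. These medians were not matched for level, and most tested members did not lie above the filter's cut in every library labelled Runx1 KO. Igkc, the kappa constant gene, had an SD of 0.083 in WT and 0.93 in the libraries labelled Runx1 KO.

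**Figure D1:**
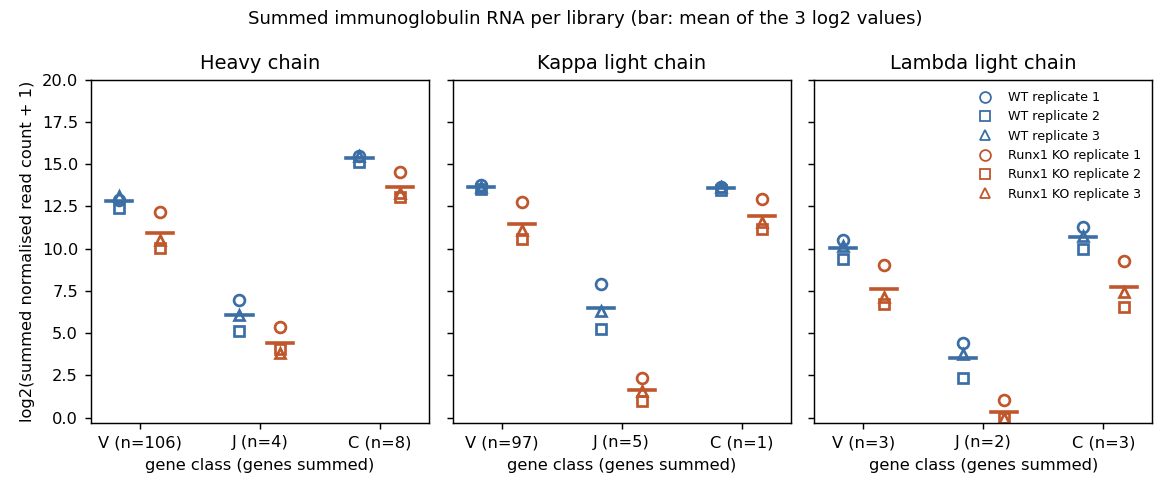
Summed normalised reads, as log2(sum + 1), of the V, J and C genes of each locus; each symbol is 1 library (blue WT, orange Runx1 KO), the symbol's shape is the replicate number and the bar is the mean of 3 log2 values. Every orange symbol lies under every blue one except in the heavy J genes, where the highest library labelled Runx1 KO (39.8) exceeds the lowest WT library (34.3).

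Among heavy constant genes, Ighm, Ighd, Ighg3 and Ighg2b fell, and Ighg1, Ighg2c and Igha did not pass the threshold. Ighm (chr12:113418558-113422730), the gene of IgM, had the most reads of all members, uncorrected for length: it stood at 39735.5, 25418 and 29156 normalised reads in WT and at 16658.5, 7229 and 7891 in the libraries labelled Runx1 KO. Its groups did not overlap (log2 change -1.65, SE 0.32, adjusted p = 0.0143), and the adjusted p was 0.0537 without library 2 and 0.0512 without library 3 labelled Runx1 KO. Ighd, the gene of IgD that is made by RNA splicing from the same transcript as Ighm, had 911, 296 and 645 against 168, 54.5 and 32.8 normalised reads (log2 change -3.03, SE 0.64, adjusted p = 0.0179). Relative to Ighm, per kilobase of exon, Ighd stood at 2.28%, 1.15% and 2.19% in WT and at 1.00%, 0.748% and 0.413% in the libraries labelled Runx1 KO, without overlap. The Ighd call had an adjusted p of 0.0553 without WT replicate 3, 0.0696 without library 2 and 0.0507 without library 3 labelled Runx1 KO.

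The 4 IgG genes together held 2337, 6792 and 9327 normalised reads in WT and 1415, 189 and 286 in the libraries labelled Runx1 KO, a 9.76-fold difference and 25.9-fold without library 1 of that label. Ighg3 had 587, 3067 and 939 normalised reads in WT against 230, 128 and 113 (log2 change -2.99, SE 0.59, adjusted p = 0.0144, and 0.0587 or 0.0519 without library 2 or 3 labelled Runx1 KO). WT replicate 2 was the highest of its group in Ighg3, while WT replicate 3 was the highest in the other 3 IgG genes. Ighg2b had 804, 1813 and 3960 against 573, 58.5 and 131 normalised reads (log2 change -3.44, SE 0.88, adjusted p = 0.0330), and edgeR's adjusted p was 0.0514. The Ighg2b call was also lost without WT replicate 2 or 3 or without library 2 or 3 labelled Runx1 KO (limma adjusted p 0.0879 to 0.101). Ighg1, with 289, 706 and 1809 against 187, 1.98 and 32.8, had a limma adjusted p of 0.0538. Ighg2c, with 657, 1206 and 2619 against 425, 0.991 and 8.95, had one of 0.0525. Both had no overlap between groups, and both passed the threshold without library 1 labelled Runx1 KO (adjusted p = 0.0138 for Ighg1 and 0.00248 for Ighg2c).

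Igha, the gene of IgA, overlapped between groups: 3249, 3013 and 6117 normalised reads in WT against 5913, 928 and 1690 (log2 change -0.90, SE 0.64, adjusted p = 0.348). Library 1 labelled Runx1 KO came close to WT replicate 3, and without it the change was -1.64 with an adjusted p of 0.0250. As a share of the heavy constant RNA per kilobase, Igha made up 5.09%, 6.33% and 10.1% in WT and 18.7%, 7.98% and 12.8% in the libraries labelled Runx1 KO, which overlap. The IgG genes made up 4.77%, 17.3% and 20.01% in WT and 5.90%, 1.70% and 2.30% in the other group, also with overlap, and Ighm 88.1%, 75.5% and 68.4% against 74.6%, 88.0% and 84.6%. Ighe, the gene of IgE, had 115 reads in library 2 labelled Runx1 KO and 0, 1 and 1 in WT and 0 in the other 2 libraries, and was not tested.

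**Figure D2:**
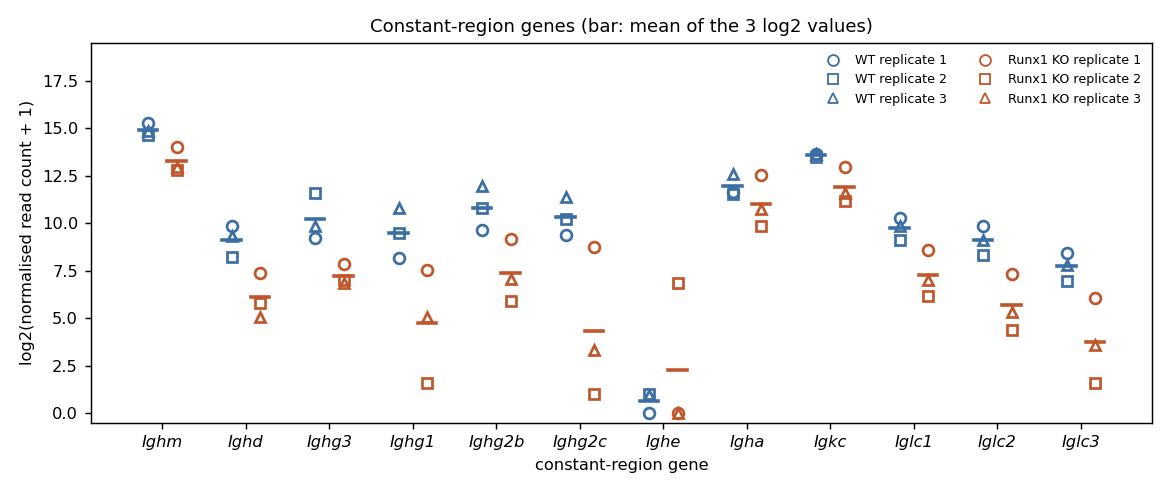
Constant-region genes as log2(normalised read count + 1); each symbol is 1 library (blue WT, orange Runx1 KO), shapes are replicate numbers and bars are means of 3 log2 values. The orange and blue symbols mix in Igha and Ighe, and the single high orange square is the 114 normalised reads of Ighe in library 2 labelled Runx1 KO.

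Heavy V segments were lower as a group: they summed to 7555, 5554 and 8842 normalised reads in WT and to 4655, 1070 and 1434 in the libraries labelled Runx1 KO. The difference was 3.07-fold, 1.57-fold for library 1 of that label alone and 5.84-fold without it. Of 106 segments 73 were tested and 24 fell, with a median log2 change of -2.31 over those tested. For 13 segments no library labelled Runx1 KO had a read.

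Ighv11-2 (chr12:114048241-114048812, minus strand) had the most reads of the heavy V segments, with 845, 1174 and 1259 normalised reads in WT and 678, 80.3 and 73.6 in the libraries labelled Runx1 KO. This segment is known from B-1 cells, in which it is paired with Igkv14-126 in antibodies to phosphatidylcholine. It fell by limma (log2 change -2.75, SE 0.80, adjusted p = 0.0487), not by edgeR (adjusted p = 0.129), and leaving out any library but library 1 labelled Runx1 KO ended the call (adjusted p 0.0825 to 0.153). Ighv9-3 had 462, 223 and 327 against 165, 21.8 and 18.9 normalised reads (adjusted p = 0.0384 by limma and 0.0847 by edgeR), and its call was lost in the same 5 fits (0.0738 to 0.127). The other heavy V segments with the most reads did not pass the limma threshold: Ighv1-26, with 469, 257 and 910 against 296, 33.7 and 79.6 (adjusted p = 0.0735), Ighv7-1, with 338, 451 and 545 against 407, 66.4 and 113 (adjusted p = 0.103), and Ighv1-55, with 520, 83.8 and 94.0 against 58.6, 42.6 and 35.8 (adjusted p = 0.0932). In Ighv1-26 and Ighv7-1 library 1 labelled Runx1 KO lay inside the WT range, and in Ighv1-55 WT replicate 1 alone lay far above the other libraries.

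The most negative changes were in segments that were almost silent in the libraries labelled Runx1 KO. Ighv3-8 had 41.6, 78.7 and 224 normalised reads in WT and 1.05, 0 and 5.97 in the other group (log2 change -5.24, SE 0.84, adjusted p = 0.00766). Ighv9-1 had 83.1, 17.2 and 24.9 against 0 in all 3 libraries labelled Runx1 KO, at least 13.8-fold higher in WT when a floor of 3 reads for each library is used (limma adjusted p = 0.00297). Ighv1-5 was even across WT, at 50.5, 44.4 and 53.7, against 2.09, 0 and 1.99 (log2 change -4.59, SE 0.48, adjusted p = 0.00235). These 3 were named for their negative changes and passed the filter through WT alone, so that a lower value was built into their selection.

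At the other end were 3 heavy V segments that did not pass the threshold. Ighv3-5 had 5.94, 2.02 and 66.2 normalised reads in WT and 51.3, 22.8 and 26.9 in the libraries labelled Runx1 KO (log2 change 1.54, adjusted p = 0.331). Ighv5-16 had 39.6, 22.2 and 94.96 against 97.3, 99.1 and 77.6 (log2 change 1.03, adjusted p = 0.163), with the 3 libraries labelled Runx1 KO close together. Without WT replicate 3 both were called higher, Ighv3-5 at a log2 change of 2.83 (adjusted p = 0.0242) and Ighv5-16 at 1.58 (adjusted p = 0.0249). Ighv9-2 had 21.8, 0 and 13.4 against 203, 0 and 0, so that its mean in the group labelled Runx1 KO came from 1 library (log2 change -0.23, adjusted p = 0.951), and the sign turned with the setting.

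The D and J segments of the heavy locus were counted at low levels. Ighd4-1, the D segment next to the J cluster and the only one listed, had 29 reads in WT and 5 in the libraries labelled Runx1 KO, a ratio of 5.60 with a 95% counting interval of 2.14 to 18.5. The 4 J segments summed to 124, 34.3 and 66.2 normalised reads in WT and to 39.8, 15.9 and 12.9 in the other group, which overlap (3.27-fold, counting interval 2.48 to 4.36, and 5.19-fold without library 1 labelled Runx1 KO). Ighj1 had 27.7, 16.1 and 16.3 against 14.6, 8.92 and 5.97 (log2 change -0.99, adjusted p = 0.113), and Ighj4, with the most reads, had 60.4, 4.04 and 29.7 against 6.28, 2.97 and 2.98 and was not tested. Of the 2 heavy J segments tested neither was called.

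**Figure D3:**
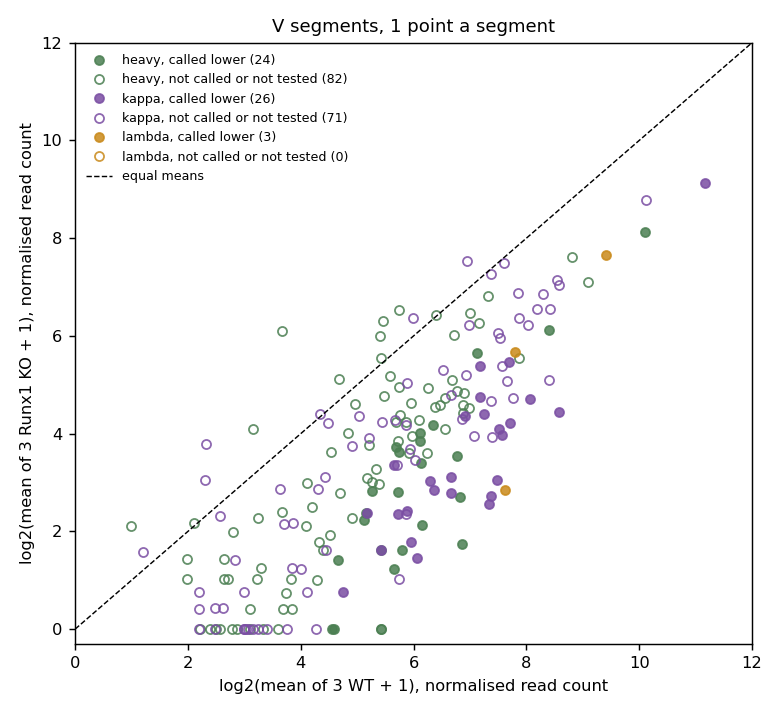
Each point is 1 V segment, with log2 of its mean normalised read count plus 1 in WT on the x axis and in Runx1 KO on the y axis; green is heavy, purple kappa and gold lambda, filled where limma called the segment lower, and the dashed line marks equal means. Of the 206 V segments 190 lie under the line, 24 heavy, 26 kappa and 3 lambda segments are filled, and 24 segments had no read in the libraries labelled Runx1 KO.

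Kappa genes were lower as well. Igkc (chr6:70726435-70726966), the kappa constant gene, had 12681, 11563 and 12847 normalised reads in WT, an even level, and 7946, 2312 and 3113 in the libraries labelled Runx1 KO (log2 change -1.68, SE 0.41, limma adjusted p = 0.0284). The groups did not overlap, but edgeR gave an adjusted p of 0.0529, and the call was lost when any library other than library 1 labelled Runx1 KO was left out (adjusted p 0.0658 to 0.0925). The 97 V segments summed to 13740, 11753 and 13062 against 6861, 1543 and 2192, a 3.64-fold difference, and 6.88-fold without library 1 of that label. Of 68 tested 26 fell, with a median log2 change of -2.86.

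Igkv14-126 (chr6:67896172-67896642, plus strand), the light chain partner of Ighv11-2 in the B-1 pair, had the most reads of all V segments. It had 1733, 2525 and 2648 normalised reads in WT and 1385, 141 and 156 in the libraries labelled Runx1 KO (log2 change -2.85, SE 0.82, adjusted p = 0.0476 by limma and 0.131 by edgeR). As for Ighv11-2, library 1 labelled Runx1 KO stood close to WT and the other 2 far below, and leaving out any other library ended the call (adjusted p 0.0803 to 0.146). Igkv15-103, Igkv1-135, Igkv10-96 and Igkv12-89, next by reads, did not pass the threshold (adjusted p = 0.0889, 0.0918, 0.114 and 0.380). Igkv15-103 had 842, 1071 and 1420 against 902, 129 and 281. Igkv12-89 rested on WT replicate 1, with 829, 59.5 and 140 against 78.5, 44.6 and 156. Without library 1 labelled Runx1 KO, Igkv15-103, Igkv1-135 and Igkv10-96 were called lower (adjusted p = 0.00638, 0.0169 and 0.00565).

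The strongest kappa falls again came from segments near 0 in libraries 2 and 3 labelled Runx1 KO. Igkv4-68 had 221, 121 and 140 normalised reads in WT against 14.6, 0 and 0 (log2 change -5.97, SE 1.04, adjusted p = 0.00954). Igkv4-55 had 178, 98.9 and 256 against 20.9, 0 and 0.995 (log2 change -5.56, SE 1.08, adjusted p = 0.0136). Igkv3-5 had 259, 90.8 and 145 against 15.7, 0.991 and 0 (log2 change -5.56, SE 1.00, adjusted p = 0.0106). These 3 were named for their negative changes and needed WT libraries to pass the filter, so that a lower value was partly built into their selection. The segments at the other end were Igkv7-33 (23.7, 39.4 and 0.959 against 16.7, 12.9 and 22.9, log2 change 0.53, adjusted p = 0.747), Igkv5-39 (196, 202 and 183 against 125, 67.4 and 346, adjusted p = 0.582) and Igkv14-100 (47.5, 22.2 and 24.9 against 19.9, 25.8 and 12.9, adjusted p = 0.269). Igkv5-39 was even across WT and spread widely in the other group, with library 3 above every WT library.

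The kappa J segments had the largest ratio of summed means among the V, J and C classes, with a counting interval that overlaps that of the lambda J segments. Together they had 365 reads in WT and 7 in the libraries labelled Runx1 KO, or 243, 37.3 and 78.7 against 4.18, 0.991 and 1.99 normalised reads, a ratio of 50.2 with a 95% counting interval of 24.1 to 125.6 (80.4 without library 1 labelled Runx1 KO). In all 5 the groups did not overlap. Igkj5 had 74.2, 14.1 and 23.0 against 1.05, 0.991 and 1.99 (log2 change -3.71, SE 0.60, adjusted p = 0.00785). It was the only one tested and had passed the filter on WT values alone. Igkj4 had 71.2, 9.08 and 18.2 against 2.09, 0 and 0. Igkj3, which lacks the TTCGG motif in the sequence shown, had 46.5, 5.05 and 21.1 in WT and no read in the other group. WT replicate 1 was the highest in each of these segments.

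Kappa J RNA was also low relative to Igkc. In normalised reads, kappa J segments came to 1.92%, 0.323% and 0.612% of Igkc in WT and to 0.0527%, 0.0429% and 0.0639% in the libraries labelled Runx1 KO, without overlap. Heavy J segments came to 0.311%, 0.135% and 0.227% of Ighm against 0.239%, 0.219% and 0.164%, which overlap. An exact permutation test of 3 against 3 libraries has a smallest two-sided p of 0.1, and no p is given for these ratios. Rag1, which encodes a subunit of the recombinase, stood at 4780, 493 and 699 in WT and at 329, 54.5 and 78.6 in the libraries labelled Runx1 KO. WT replicate 1 was again the highest, and the adjusted p was 0.0468 by limma and 0.054 by edgeR. Rag2, which encodes the other subunit, stood at 171, 66.6 and 64.3 against 90.0, 51.5 and 62.7, which overlap (log2 change -0.44, limma adjusted p = 0.473). The part of cells at the recombination stage in the kappa J values was not tested.

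All 6 tested lambda genes fell. Iglc1 had 1218, 559 and 941 normalised reads in WT against 384, 71.4 and 126 (log2 change -2.50, SE 0.59, adjusted p = 0.0263). Iglc2 had 941, 321 and 558 against 162, 19.8 and 38.8 (log2 change -3.43, SE 0.75, adjusted p = 0.0199). Iglc3 had 349, 122 and 224 against 65.9, 1.98 and 10.9 (log2 change -4.00, SE 1.04, adjusted p = 0.0355 by limma and 0.0540 by edgeR). Order among libraries was the same in these 3: WT replicate 1 was highest and WT replicate 2 lowest of its group, and library 1 was highest and library 2 lowest of those labelled Runx1 KO.

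Among lambda V segments, Iglv1 had 783, 452 and 806 normalised reads in WT against 412, 70.4 and 116 (log2 change -2.12, SE 0.61, adjusted p = 0.0468 by limma and 0.0857 by edgeR). Iglv2 had 345, 115 and 203 against 92.1, 32.7 and 24.9 (log2 change -2.22, SE 0.56, adjusted p = 0.0322). Iglv3, sometimes named Vx, had 361, 94.9 and 130 against 15.7, 1.98 and 0.995 (log2 change -5.16, SE 0.85, adjusted p = 0.00830) and was called in all 16 alternative fits. Leaving out WT replicate 1, WT replicate 3, or library 2 or 3 labelled Runx1 KO left 1 lambda call each time, Iglv3. The 3 V segments summed to 1489, 662 and 1139 against 520, 105 and 142, a 4.29-fold difference (8.87-fold without library 1 labelled Runx1 KO). The 3 C genes summed to 2508, 1002 and 1723 against 612, 93.2 and 176, or 5.94-fold (13.0-fold). Lambda J segments had 38 reads in WT and 1 in the other group, a ratio of 35.6 with a counting interval of 6.02 to 1444.3; Iglj1 had 13.9, 4.04 and 7.67 against 1.05, 0 and 0, and Iglj3p 6.93, 0 and 4.80 against 0 in all 3.

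Kappa constant RNA stood higher relative to lambda constant RNA in the libraries labelled Runx1 KO. No ratio in this paragraph was tested, and for 3 against 3 libraries the smallest exact two-sided permutation p is 0.1. Per kilobase of exon, Igkc stood at 4.77, 10.7 and 6.94 times the sum of the 3 lambda C genes in WT, and at 11.9, 22.4 and 16.0 times in the libraries labelled Runx1 KO, with no overlap although library 1 at 11.9 lay close to WT replicate 2 at 10.7. The ratio of Ighm to Igkc per kilobase overlapped, at 0.884, 0.620 and 0.640 against 0.591, 0.882 and 0.715. Kappa V reads for each read of Igkc were 1.08, 1.02 and 1.02 in WT against 0.863, 0.667 and 0.704, again without overlap, whereas heavy V reads for each heavy C read were 0.163, 0.156 and 0.195 against 0.193, 0.126 and 0.145, which overlap.

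The segments that led each library were not the same ones. Ighv11-2 and Igkv14-126 led the heavy and kappa V reads in all 3 WT libraries and in library 1 labelled Runx1 KO. Ighv11-2 took 11.2%, 21.1% and 14.2% of the heavy V reads in WT and 14.6%, 7.50% and 5.13% in the libraries labelled Runx1 KO. Igkv14-126 took 12.6%, 21.5% and 20.3% of the kappa V reads in WT and 20.2%, 9.12% and 7.12% in the other group. Library 2 labelled Runx1 KO was led by Ighv2-3, with 13.8% of heavy V reads against 0.277% to 2.27% in the other libraries, and by Igkv4-50, with 14.6% of kappa V reads against 0.198% to 0.747%. Library 3 of that label was led by Ighv6-3, with 13.7% against 1.37% to 3.32%, and by Igkv5-39, with 15.8% against 1.40% to 4.37%. The Wilson 95% intervals of the leading shares had a half-width of at most 2.06 percentage points and cover counting error only. These 4 segments were picked because they led a library, and none was tested for its share.

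The 3′ ends of the leading segments show how the members that set each library's pattern differ at the join. The last 60 bases are given 5′ to 3′ on the coding strand (GENCODE M21, GRCm38), with the codon of the conserved cysteine that opens the third complementarity-determining region (TGT or TGC, found after a tyrosine codon and a tyrosine or phenylalanine codon) in capitals. Heavy segments are from the minus strand of chromosome 12, Igkv14-126 from the plus strand and Igkv4-50 and Igkv5-39 from the minus strand of chromosome 6, and Iglv1, the leading lambda segment, from the minus strand of chromosome 16.
Ighv11-2: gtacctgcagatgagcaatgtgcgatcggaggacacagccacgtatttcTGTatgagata
Ighv2-3: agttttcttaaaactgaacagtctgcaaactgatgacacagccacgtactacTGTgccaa
Ighv6-3: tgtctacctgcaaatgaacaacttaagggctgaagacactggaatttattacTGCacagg
Igkv14-126: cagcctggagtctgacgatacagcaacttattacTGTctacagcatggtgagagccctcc
Igkv4-50: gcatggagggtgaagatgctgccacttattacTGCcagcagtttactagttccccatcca
Igkv5-39: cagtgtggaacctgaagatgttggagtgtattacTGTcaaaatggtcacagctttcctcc
Iglv1: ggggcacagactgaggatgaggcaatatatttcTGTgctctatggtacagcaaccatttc
From the cysteine codon to the end of the segment, the heavy segments carry 8 to 11 bases and the light chain segments 26 to 28.

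**Figure D4:**
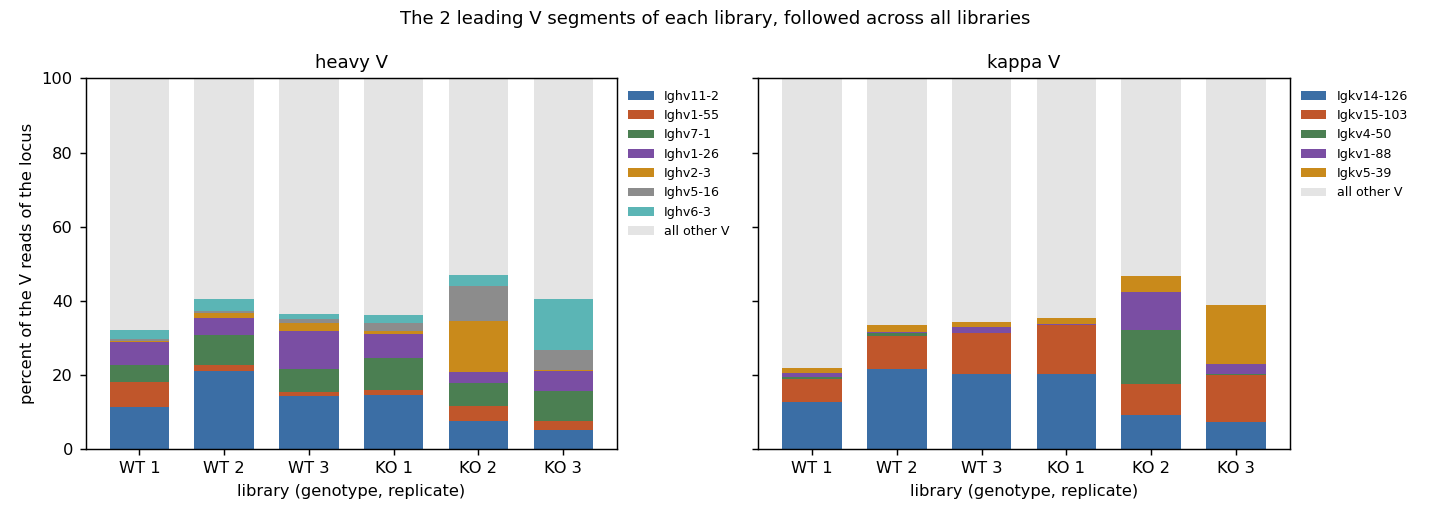
Stacked bars give, for each library, the percent of the V reads of the heavy (left) or kappa (right) locus taken by the segments that ranked 1 or 2 in any library; grey is the remainder. Ighv11-2 and Igkv14-126 (blue) are the tallest named blocks in WT and in KO 1, while KO 2 shows 13.8% Ighv2-3 and 14.6% Igkv4-50 and KO 3 shows 13.7% Ighv6-3 and 15.8% Igkv5-39.

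Fewer V segments had a read in the libraries labelled Runx1 KO: 86, 62 and 68 of 106 heavy segments against 106, 102 and 100 in WT, and 83, 51 and 57 of 97 kappa segments against 97, 92 and 95. Listed genes needed 10 reads over all libraries, most of which are in WT, and these counts move with depth at the locus. At an equal number of V reads, obtained by exact rarefaction to 1080 heavy reads, the expected number was 97.1, 86.6 and 85.3 in WT and 74.3, 62.0 and 66.0 in the other group. For 1557 kappa reads it was 87.7, 77.5 and 78.5 against 73.0, 51.0 and 54.8, without overlap at either locus. Rarefaction does not remove the choice of listed segments by reads that lie mostly in WT, so fewer segments in the other group are partly built in. The inverse Simpson index, the effective number of equally used segments, did not keep the groups apart: it was 28.6, 15.7 and 22.4 against 20.2, 19.0 and 20.4 for heavy V, and 28.0, 15.02 and 14.9 against 12.6, 15.5 and 15.75 for kappa V.

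Many V segments have close copies, and the sources used here do not state how reads fitting several genes, or the strand, were handled. Segments were compared over their last 280 bases by edit distance, in an end-to-end alignment that allows gaps. By this measure, 54 of 106 heavy, 49 of 97 kappa and 2 of 3 lambda V segments were at least 95% identical to another annotated V segment. At least 98% was reached by 10 heavy and 6 kappa segments. Values of such members are uncertain where counting could split or drop shared reads. The constant genes, those of the lambda locus among them, were not compared in this way. Ighv1-62-2 was identical to Ighv1-71 over these bases. Ighv11-2 shares 98.57% with Ighv11-1, yet Ighv11-1 had 1.98, 5.05 and 5.76 normalised reads in WT and 0 in the libraries labelled Runx1 KO. The stretch that holds all 4 differences between them is shown from chr12:114048263-114048520 for Ighv11-2 and chr12:113981901-113982158 for Ighv11-1, minus strand, GRCm38, with the differing bases in capitals.
Ighv11-2: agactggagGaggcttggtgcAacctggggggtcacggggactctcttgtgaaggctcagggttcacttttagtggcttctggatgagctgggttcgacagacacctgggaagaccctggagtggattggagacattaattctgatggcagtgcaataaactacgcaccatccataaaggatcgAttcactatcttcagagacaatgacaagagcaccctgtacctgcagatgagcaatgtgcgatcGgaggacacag
Ighv11-1: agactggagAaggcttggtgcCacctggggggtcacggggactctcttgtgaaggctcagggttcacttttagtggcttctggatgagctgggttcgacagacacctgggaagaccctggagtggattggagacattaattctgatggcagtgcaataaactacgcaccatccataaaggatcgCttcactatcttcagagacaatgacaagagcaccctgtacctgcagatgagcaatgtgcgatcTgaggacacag
Reads that lie between these bases are the same for both segments.

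Families of V segments, which group them by sequence, were compared by their summed values. In the heavy locus, the Ighv1 family, with 52 of the 106 segments, summed to 2883 ± 897 normalised reads in WT and 869 ± 736 in the libraries labelled Runx1 KO (SD, n = 3 each), 3.32-fold (6.45-fold without library 1 labelled Runx1 KO), and 11 of its 33 tested segments fell. The single Ighv12 segment had 130, 56.5 and 23.0 against 3.14, 0 and 6.96, and it passed the filter through WT only. Ighv6, with 2 segments, differed 1.80-fold, at 257, 281 and 244 against 152, 39.6 and 243. Ighv3, Ighv4, Ighv7, Ighv9, Ighv10 and Ighv13 overlapped between groups. In the kappa locus, Igkv3 had 1183, 726 and 1442 against 350, 11.9 and 92.5, a 7.37-fold difference (21.4-fold without that library) with 4 of 6 tested segments lower, and Igkv19 had 353, 397 and 396 against 41.8, 4.96 and 15.9, 18.3-fold (36.6-fold). Igkv4, the largest kappa family with 29 segments, differed 3.70-fold (5.71-fold), with 5 of 17 tested lower. Igkv5 differed 1.58-fold (1.77-fold), and Igkv7, Igkv10 and Igkv15 overlapped. These families were singled out after their values were seen.

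The lower values were spread along both large loci. When listed heavy V segments were divided by their order from the J segments into blocks of 36, 35 and 35, lower calls were 10 of 29, 6 of 21 and 8 of 23 tested, with median log2 changes of -2.32, -2.35 and -2.11. Kappa V segments in blocks of 33, 32 and 32 gave 9 of 23, 8 of 22 and 9 of 23, with medians of -3.25, -2.88 and -2.68. The summed difference was 2.76-, 3.58- and 3.18-fold in the heavy blocks and 4.02-, 3.74- and 3.45-fold in the kappa blocks. Without library 1 labelled Runx1 KO these were 5.79-, 5.52- and 6.51-fold and 6.49-, 5.38- and 7.76-fold, so that the order of the blocks changed. Kappa V segments lie in both orientations: 14 of 25 tested plus-strand and 12 of 43 tested minus-strand segments were lower, with medians of -2.99 and -2.63. No difference between blocks or strands was tested.

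**Figure D5:**
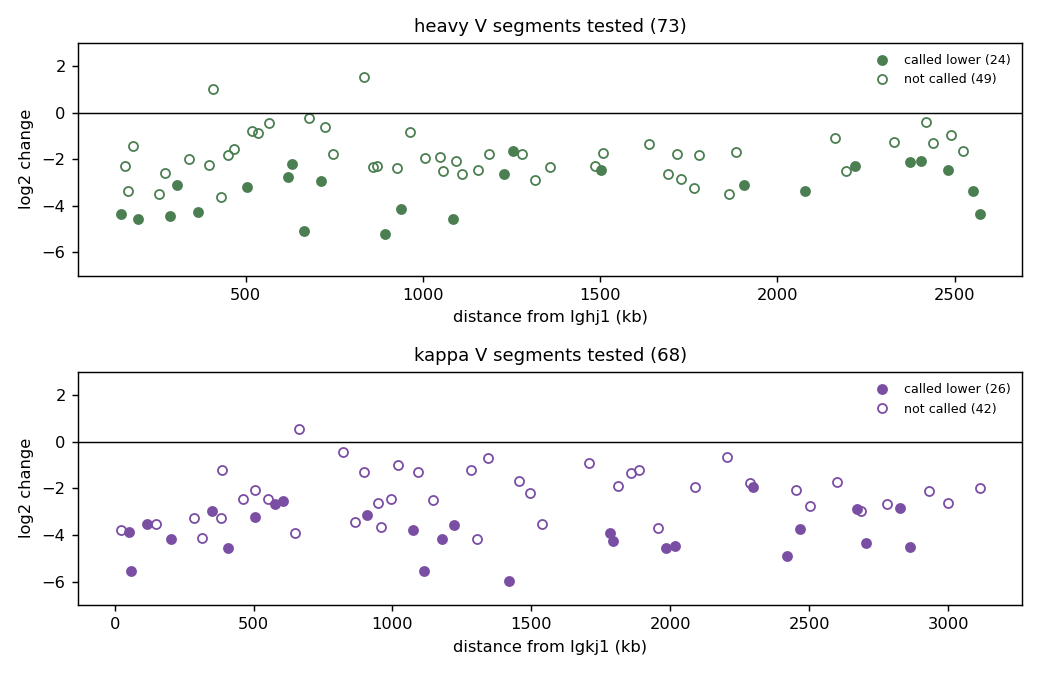
Limma log2 change (Runx1 KO against WT) of each tested V segment against its distance in kb from Ighj1 or Igkj1, heavy above and kappa below; filled points were called lower. Points lie under 0 along the whole of both loci, with 2 heavy segments and 1 kappa segment above it.

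Although no member rose, 17 of the 230 had a higher mean in the libraries labelled Runx1 KO, and most of these means came from 1 library. Besides Ighe and Ighv9-2, they included Igkv14-130, with 339, 26 and 4 reads in WT and 527, 0 and 0 in the other group, Ighv1-81, with 36, 28 and 68 against 215, 5 and 6, and Ighv1-7, with 56, 22 and 50 against 130, 0 and 1. Igkv4-50 had 73, 87 and 28 against 13, 227 and 6. Ighv5-16 was the member whose higher mean was shared most evenly by the 3 libraries. The 13 listed V pseudogenes, which cannot encode a chain, had 434 reads in WT and 39 in the libraries labelled Runx1 KO, a ratio of 10.8 with a counting interval of 7.76 to 15.4.

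Lists of genes that mark B lineage, plasma and T cells were read beside the immunoglobulin genes. Of 18 early B lineage genes, 10 fell and 1 rose, where 11.3% of all genes tested fell and 10.6% rose. Among them, Ebf1 (log2 change -4.60, adjusted p = 0.0186), Pax5 (-5.35, 0.0123), Il7r (-2.15, 0.0399), Cd79a (-5.18, 0.0130), Cd79b (-1.61, 0.0288), Vpreb3 (-4.38, 0.0149), Rag1 (-3.38, 0.0468), Bach2 (-2.38, 0.0216) and Cd72 (-3.20, 0.00358) fell by limma, and Dntt, which adds bases at the joins, rose (0.57, 0.0311). Of 12 tested mature B genes 9 fell. Of 12 tested plasma cell genes 5 fell, namely Irf4 (-4.59, 0.0117), Mzb1 (-2.89, 0.0371), Derl3 (-1.35, 0.0116), Fkbp11 (-0.91, 0.00292) and Pou2af1 (-4.45, 0.0186), and Sdc1 rose (1.40, 0.0149). Jchain, the joining chain of IgM and IgA polymers, had 3311, 3371 and 3990 normalised reads in WT and 2481, 425 and 744 in the other group (log2 change -1.94, adjusted p = 0.0502). The edgeR test called 9 early B, 9 mature B and 4 plasma cell genes lower, against 10.5% of all genes.

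None of 14 T lineage genes passed the threshold, all had negative changes (median -1.46), and 32 listed T cell receptor segments, 11 of them tested, gave no call. Their sum was 708, 403 and 508 normalised reads in WT and 700, 176 and 162 in the libraries labelled Runx1 KO. Summed early B genes stood between 15058 and 44462 in WT and between 8664 and 11533 in the other group, mature B genes between 8660 and 22337 against 3821 and 5430, and plasma cell genes between 16847 and 25422 against 12235 and 15735. These sums lean on the genes with the most reads and do not give the size of the called changes. In the libraries labelled Runx1 KO, Tcf3 held 5251, 5394 and 6054 of the early B sums. Cd37 held 3595, 3099 and 2885 of the mature B sums, and Xbp1 5435, 5444 and 5246 of the plasma cell sums. None of them passed the limma threshold (log2 change -0.09, -0.46 and 0.20). No listed marker was at 0 in all libraries labelled Runx1 KO. The part of the share of B lineage, plasma and T cells in the immunoglobulin values was not tested. Of 16 tested genes of recombination and class switching, 3 fell (Rag1, Lig4 and Hmgb2) and 1 rose (Dntt), a share near the 21.9% of all genes called either way; edgeR called 2 lower. Among 24 regulators of the loci 9 fell (Pax5, Ebf1, Ikzf1, Ikzf3, Irf4, Spi1, Spib, Pou2af1 and Rad21), against 11.3% of all genes, and Stat5a and Stat5b rose. The median log2 change of these 24 was -0.11, and edgeR called 7 lower.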

How the data were processed

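The authors deposited 1 file for each of 6 libraries, and its values are a signal: gene read counts divided by 1 size factor for each library, as worked out from the values. In each file 100% of values were whole multiples of what 1 read is worth, within a tolerance of 0.001, and these multiples are the recovered reads (23297526 to 26793380 in a library). Per the labels' protocols, poly-A RNA was made into stranded libraries; the submitters' processing notes name HISAT2, HTSeq 0.9.1, GRCm38 and mm10. Annotation, strand setting and the handling of reads that fit several genes are not given in the sources used here. No listed gene has under 10 reads in all.

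Genes that passed filterByExpr by group (minimum count 10, minimum total 15) were tested, 15410 of 20097. The test was limma 3.58.1 (R 4.3.3) with a mean trend on log2(value + 1), two-sided, Benjamini-Hochberg over the genes tested, threshold 0.05; it understates changes of low genes. A floor of 3 reads came to 2.88 to 3.14 normalised reads. Counting intervals are 95% exact intervals of a ratio of reads and, like the floor, cover counting error only: PCR copies of a molecule were not told apart. The limma fit, limma with the replicate block, edgeR with TMM and DESeq2 were tested on simulated data. The other settings named below were not.

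Symbols, biotypes, positions and sequences come from GENCODE M21 by Ensembl identifier (20090 matched). Named were all constant genes; for each locus the 5 V segments with the highest mean, and the 3 with the most negative and 3 with the most positive log2 change among those tested; and the 2 highest J or D segments. Leading, paired and family members were named after their values were seen. Members and lists were chosen with earlier results of these data known. Alternatives were edgeR 4.0.16 (TMM or DESeq2 size factors) and DESeq2 1.42.0 on recovered reads, limma on TMM or library totals, pseudocounts 0.5 and 5, no filter, a mean CPM of at least 1, the replicate block, and each library left out. One of the genes of the early B lineage list is counted but not reported here by name.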

Additional observations from a re-analysis of the deposited data

How the results depend on the processing

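The count of heavy genes called lower, 28, was 18 with a mean CPM of at least 1 and 36 with no filter, and with no filter 43 kappa genes, against 28, and 7 lambda genes, against 6, were called. Over all genes, 3182 were called in either direction with a mean CPM of at least 1 and 3382 with no filter, against 3370. The other settings that kept all libraries and had no block gave 21 to 35 heavy, 25 to 33 kappa and 4 to 6 lambda calls and no rise among members. These settings called 3261 to 3911 genes in all. Leaving out 1 library gave 15 to 50 heavy, 19 to 53 kappa and 1 to 6 lambda calls, 0 to 2 rises, and 1367 to 3597 genes called in all against 3370. The highest counts of heavy and kappa calls came without library 1 labelled Runx1 KO. Log2 ratios of summed V levels ran from -2.55 to -1.27 for heavy, from -2.78 to -1.51 for kappa and from -3.15 to -1.73 for lambda, with main values of -1.62, -1.86 and -2.10; the cause was not tested. Of the 38 named genes that were tested, Ighv9-2 had a positive log2 change in edgeR (2.52 by TMM and 2.50 by the DESeq2 factors) and at pseudocount 5 (0.36), and ran from -2.79 to 1.05 when 1 library was left out. Igkv7-33 had a negative one in edgeR (-0.27 and -0.28) and in DESeq2 (-0.29), and ran from -0.81 to 1.37 when 1 library was left out, as Igkv5-39 did from -1.07 to 0.10. None of these values passed the threshold.

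Same-numbered libraries of the 2 groups share their number in the titles only. Their deviations from the group means correlated at 0.29, 0.13 and -0.01 across the genes tested, so that the numbers were not taken to pair the libraries. With the replicate block 47 heavy, 43 kappa and 6 lambda genes were called lower, and 27, 28 and 6 of these were among the calls reported. The block also raised the genes called in either direction over all genes, to 3843 from 3370. Depth limits the J segments, with 75 reads over 11 of them in the libraries labelled Runx1 KO, and the 62 V segments not tested; a V segment with no read there may still hold up to 3 reads' worth in each library.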

Other observations

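One further gene with an immunoglobulin V biotype, Gm43218, lies in the kappa locus but has a symbol outside the prefixes used. It had 24, 9 and 12 reads in WT replicates 1 to 3 and 0 in all 3 libraries labelled Runx1 KO, and it was not counted among the members.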
